A study of Mus musculus with 18 samples.

Results

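Interscapular brown adipose tissue (BAT) and mesenteric white adipose tissue (mWAT), the visceral fat of the gut mesentery, were compared in mice kept at 28 °C, a temperature close to thermoneutrality at which brown fat has little heat to make. The comparison used 6 of the 18 arrays of the series, 3 of BAT and 3 of mWAT, chosen by their titles. Every array came from a female Sv129 mouse 10 weeks old, caged singly for 10 days at its temperature, and the 12 arrays not compared here were subcutaneous fat (sWAT) at 28 °C and the same 3 depots at 6 °C. The labels name no transgene, mutation or drug treatment in any group. The 3 arrays of a depot are called A, B and C, names that pair nothing between depots, since the labels do not say which depots came from one mouse. In 5 of the 6 arrays the tissue characteristic, and in 3 the temperature characteristic, differed from the title, source name and description, which matched each other and set the groups. The study's methods call the arrays of a group biological replicates. The labels tie no array to a mouse. The p-values rest on the spread between arrays of the same group, pooled over all 18 arrays of the series.

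Brown adipocytes burn fatty acids in many mitochondria and let the proton gradient run down through uncoupling protein 1 (UCP1), so that respiration gives heat instead of ATP. Noradrenaline from sympathetic nerves drives this through β-adrenergic receptors, cAMP and lipolysis. White adipocytes store triglyceride and secrete adipokines. Mesenteric fat is also wrapped in mesothelium, carries vessels, lymphatics and nerves toward the gut, and lies beside lymph nodes.

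The values were Affymetrix probe set intensities, on a scale that ran over these arrays between 4.54 and 24531, and are given as log2 intensities (2.18 to 14.58). A gene was represented by its probe set of highest mean, and was called where limma, fitted over all 18 arrays, gave an adjusted p under 0.01 among 45037 probe sets. Differences are BAT minus mWAT on the log2 scale, with the standard error of the fit. Of 18193 genes, 3218 were called higher in BAT and 2697 lower, which is 17.7% and 14.8% of the genes. The genes called higher had a median log2 difference of 1.0 in size, and 109 of them differed at least 8-fold. Those called lower had a median of 1.56 in size, and 392 differed at least 8-fold. The median over all genes was 0.08. Per probe set, 7109 were called higher and 5121 lower, 15.8% and 11.4% of 45037, and with each array centred on its median 9417 and 4196.

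The arrays of a depot correlated at r = 0.983 to 0.989 in BAT and 0.963 to 0.99 in mWAT, against 0.905 to 0.928 between depots, over 45037 probe sets. Some arrays stood apart within their depot. BAT arrays B and C had a mean log2 intensity of 12.37 and 11.75 over 26 skeletal muscle genes, against 8.33 in BAT array A and 6.64 to 7.27 in mWAT. In mWAT, arrays A and B had 10.80 and 10.91 over 16 T cell genes, against 6.19 in mWAT array C, and 10.91 and 11.25 over 20 B cell genes, against 7.25 in array C. Array A of mWAT alone held exocrine pancreas transcripts, with 9.03 over 18 genes, against 4.81 to 5.12 in the other 5 arrays. The defining markers of the depots followed the titles: Ucp1 was high in the 3 BAT arrays, and the mesothelial genes Upk3b and Msln in the 3 mWAT arrays. Without both BAT arrays B and C, 3902 probe sets were called higher and 2654 lower, and without both mWAT arrays A and B, 3207 and 3429. These 2 pairs are called the doubted arrays. In bulk tissue, fewer cells of a type and less RNA per cell cannot be told apart.

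**Figure D1:**
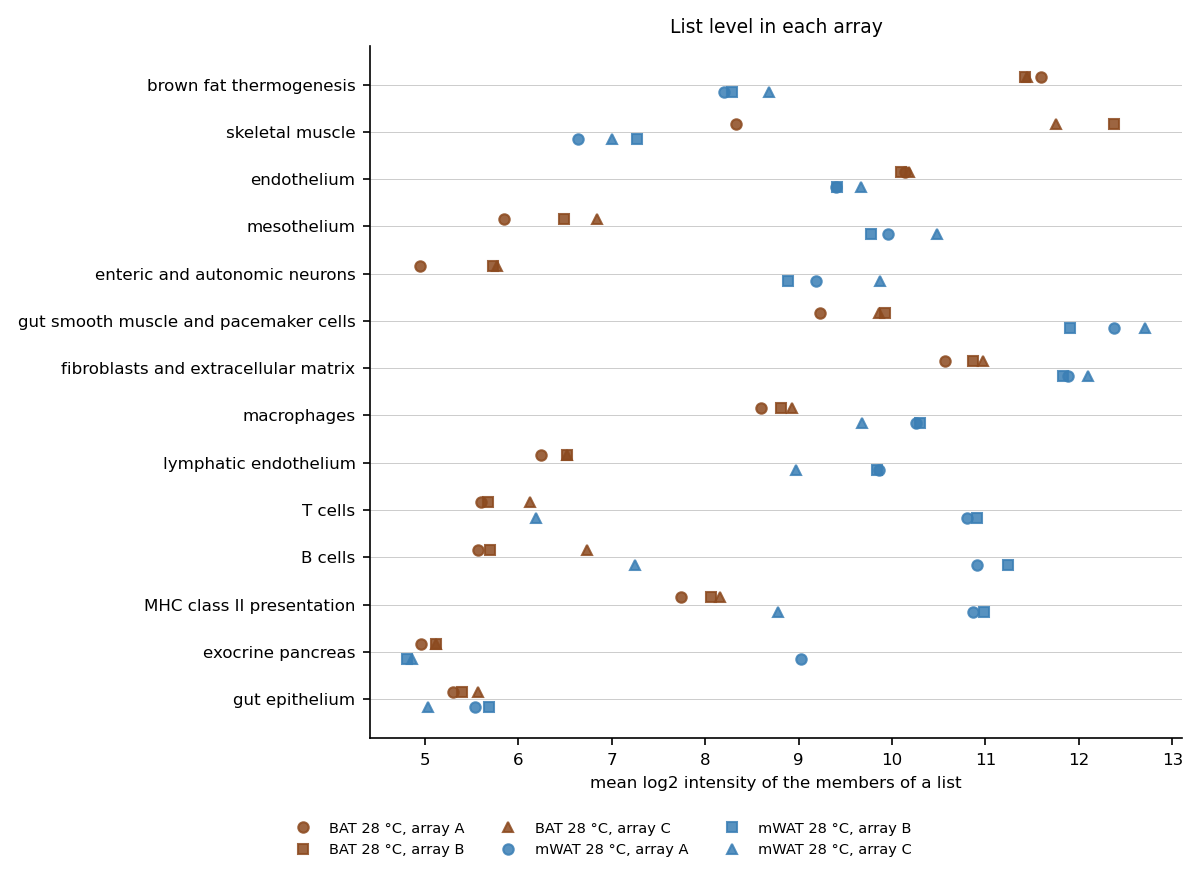
Mean log2 intensity of the measured members of 14 gene lists (rows) in each of the 3 BAT and 3 mWAT arrays at 28 °C, with BAT above mWAT in each row and a symbol for each array. Skeletal muscle is high in BAT arrays B and C, T and B cell genes in mWAT arrays A and B, and exocrine pancreas in mWAT array A.

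Ucp1 had the largest measured difference among the genes higher in BAT. Its log2 intensity was 14.07, 13.99 and 14.02 in BAT, against 6.27, 6.76 and 6.39 in mWAT, a log2 difference of 7.55 ± 0.29 (SE; adjusted p = 2.2e-09). The BAT values lay near the top of the intensity scale and close together, far above the mWAT values, and differences at that end of the scale may be measured too small. Slc27a2, an acyl-CoA synthetase and transporter for very long chain fatty acids, was 11.31, 11.13 and 11.29 in BAT, against 4.07, 4.45 and 3.58 in mWAT, a log2 difference of 7.21 ± 0.34. Zic1, a zinc finger transcription factor and a lineage marker of interscapular brown fat, was 9.67, 9.69 and 9.68 in BAT, against 2.55, 2.53 and 2.57 in mWAT. Its mWAT values lay close together near the bottom of the scale, where differences are limited too, and its measured log2 difference was 7.13 ± 0.17 (adjusted p = 6.5e-12). Cpn2, the regulatory subunit of the plasma enzyme carboxypeptidase N, was 10.86, 10.48 and 10.86 in BAT, against 3.93, 4.35 and 4.01 in mWAT, a log2 difference of 6.64 ± 0.36. For Slc27a2 and Cpn2, too, the 3 BAT arrays lay above every mWAT array. The leading genes of both directions were chosen among called genes whose arrays did not overlap, so the lack of overlap is no separate result.

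The 250 bases before the start of these 4 genes are shown from the RefSeq promoter table (build GRCm38.p6), since they are among the genes of largest rise. The motif searched was AAGGTCA on both strands (TGACCTT on the other), and its letters are in capitals where they occur. It is a binding sequence of the estrogen-related receptors, 2 of whose genes (Esrra and Esrrg) were called higher in BAT. The windows lie at chr8:83290098-83290347 for Ucp1 (plus strand), chr9:91365769-91366018 for Zic1 (minus strand), chr2:126552774-126553023 for Slc27a2 (plus strand) and chr16:30267533-30267782 for Cpn2 (minus strand).
Ucp1: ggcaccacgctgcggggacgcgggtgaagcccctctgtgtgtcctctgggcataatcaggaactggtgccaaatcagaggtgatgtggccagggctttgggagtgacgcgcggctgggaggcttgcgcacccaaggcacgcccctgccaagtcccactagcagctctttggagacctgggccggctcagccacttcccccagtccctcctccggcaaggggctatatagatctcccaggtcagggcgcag
Zic1: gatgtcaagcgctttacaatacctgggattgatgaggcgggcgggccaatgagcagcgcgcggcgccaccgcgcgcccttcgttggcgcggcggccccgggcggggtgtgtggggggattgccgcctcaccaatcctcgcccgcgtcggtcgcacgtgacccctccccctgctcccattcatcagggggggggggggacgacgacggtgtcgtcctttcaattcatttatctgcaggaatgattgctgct
Slc27a2: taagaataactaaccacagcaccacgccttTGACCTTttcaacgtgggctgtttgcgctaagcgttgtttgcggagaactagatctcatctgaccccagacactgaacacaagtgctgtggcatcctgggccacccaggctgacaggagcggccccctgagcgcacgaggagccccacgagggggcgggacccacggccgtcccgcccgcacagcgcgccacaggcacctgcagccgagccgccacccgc
Cpn2: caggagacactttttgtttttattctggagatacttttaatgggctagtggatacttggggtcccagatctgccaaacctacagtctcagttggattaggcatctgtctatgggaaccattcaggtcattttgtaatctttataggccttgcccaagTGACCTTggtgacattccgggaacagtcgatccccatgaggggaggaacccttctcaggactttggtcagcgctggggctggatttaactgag
The motif was found once in the windows of Slc27a2 and Cpn2, as TGACCTT in both, and was not in those of Ucp1 and Zic1. It was in 4.08% of all 32851 windows, in 4.38% of the 2625 genes called higher in BAT that have a window, in 3.07% of 2084 called lower, in 4.35% of 9743 not called and in 4.68% of 235 genes of the mitochondrial lists. A match describes the letters of the window and not a bound site.

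Other leading rises were of 2 kinds by their arrays. Plet1os, a transcript of the strand opposite Plet1, was 9.93, 9.83 and 9.88 in BAT, against 3.25, 2.89 and 2.62 in mWAT, and 9130214F15Rik, a RIKEN transcript, was 10.36, 10.04 and 10.34 in BAT, against 4.22, 3.85 and 4.26 in mWAT. The class V myosin Myo5c was 10.85, 10.71 and 10.90 in BAT, against 4.22, 5.41 and 4.73 in mWAT, a log2 difference of 6.03 ± 0.83, and the ferlin family member Fer1l6 was 9.77, 9.19 and 9.17 in BAT, against 3.21, 3.96 and 3.65 in mWAT. In these 4 genes the BAT arrays lay together and far above each mWAT array. Pvalb, the calcium buffer parvalbumin of fast muscle fibres, was 10.76, 13.61 and 13.45 in BAT, against 4.54, 8.19 and 7.64 in mWAT. Myot, the Z disc protein myotilin, was 6.46, 10.95 and 10.08 in BAT, against 3.09, 3.96 and 3.29 in mWAT. Both were higher in BAT arrays B and C than in BAT array A, as the skeletal muscle list was, and its part in their differences was not tested. Their calls were lost without single arrays: Pvalb without arrays B or C of BAT or arrays A, B or C of mWAT (adjusted p between 0.011 and 0.046), and Myot without arrays B or C of BAT or arrays A or C of mWAT (adjusted p between 0.011 and 0.022).

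The genes that fell most in BAT included genes of mesothelium, nerve, gut mesoderm and lymphocytes. Bnc1, a zinc finger protein of mesothelium and keratinocytes, was 3.52, 3.32 and 4.0 in BAT, against 10.64, 10.62 and 11.13 in mWAT, a log2 difference of -7.18 ± 0.68 (adjusted p = 1.5e-06). Snap25, a SNARE protein of synaptic vesicle release, was 3.17, 5.86 and 5.74 in BAT, against 11.84, 11.35 and 12.26 in mWAT. Scg2, the secretogranin of dense core vesicles, was 3.06, 5.12 and 5.68 in BAT, against 11.26, 10.95 and 12.09 in mWAT. Calcb, which encodes the neuropeptide β-CGRP, was 3.52, 5.62 and 5.08 in BAT, against 11.39, 10.65 and 11.87 in mWAT. BAT array A was the lowest of the BAT arrays for these 3 neuronal genes, and the mWAT arrays lay far above all 3. Colec10, a collectin, was 2.86, 3.94 and 4.61 in BAT, against 10.66, 9.73 and 11.21 in mWAT. Foxf1, a forkhead factor of visceral mesoderm, was 3.88, 5.89 and 5.60 in BAT, against 11.61, 11.04 and 11.88 in mWAT. For both, the 3 BAT arrays lay below every mWAT array, as the rule of choice required, and BAT array A was again the lowest. Bcl11a, a zinc finger repressor of lymphoid and neural cells, was 3.75, 4.35 and 5.08 in BAT, against 11.01, 11.05 and 10.34 in mWAT. The immunoglobulin light chain gene Igk-V21 was 2.95, 3.94 and 6.98 in BAT, against 11.26, 12.78 and 9.30 in mWAT, with the widest spread of the 10 in both depots and the mWAT values highest in arrays A and B. Rims1 of the presynaptic active zone and Upk3b, a mesothelial uroplakin, had log2 differences of -6.34 ± 0.77 and -6.33 ± 0.40.

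**Figure D2:**
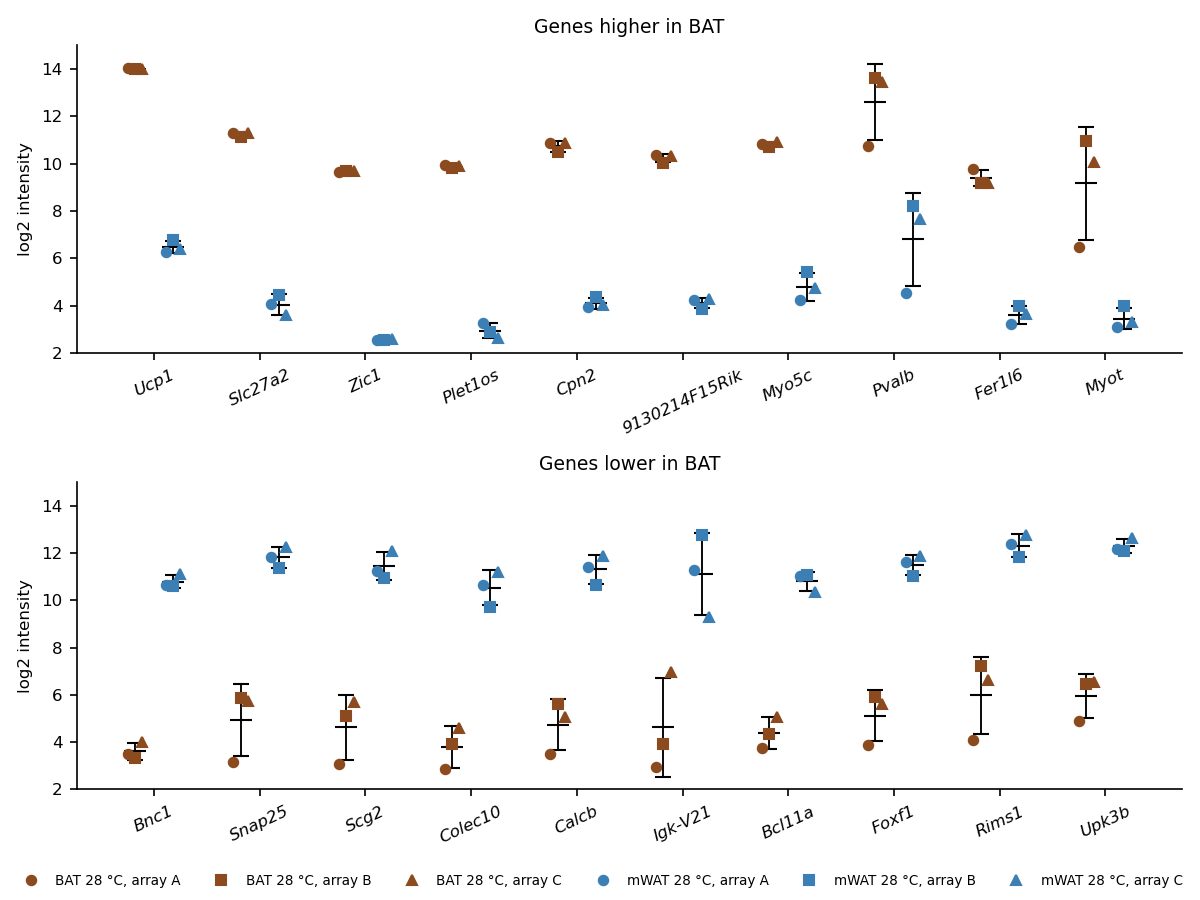
Log2 intensity (vertical axis) of the 10 genes with the largest rise and the 10 with the largest fall in BAT at 28 °C, with 3 BAT arrays left and 3 mWAT arrays right of each gene's position, and bars for the mean and SD. The 20 genes were chosen among called genes whose arrays did not overlap between depots. Pvalb, Myot and Igk-V21 have the widest bars.

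Thermogenic genes were higher in BAT. Of the 31 measured members of the thermogenesis list, 29 were called higher and none lower (17.7% and 14.8% of all genes), with a median log2 difference of 2.61, and 31 of 31 had BAT arrays above mWAT arrays without overlap (31.6% of all genes). Many members, among them Slc27a2, Cpn2, Kng1, Nrg4 and S100b, are genes that the paper lists as higher in BAT from these same arrays. The counts are therefore no independent test of the list. The members not called were Fgf21 (log2 difference 0.69 ± 0.31, adjusted p = 0.083) and Gpr146 (0.48 ± 0.18, adjusted p = 0.042). Cidea, a lipid droplet protein of brown fat, was 13.99, 13.93 and 13.96 in BAT, against 9.88, 10.25 and 11.14 in mWAT, a log2 difference of 3.54 ± 0.24. Dio2, which activates thyroid hormone inside the cell, was 11.34, 11 and 11.21 in BAT, against 8.83, 9.59 and 9.40 in mWAT. Ppargc1a, the coactivator PGC-1α of mitochondrial biogenesis, was 10.89, 10.39 and 10.48 in BAT, against 8.83, 8.46 and 10.01 in mWAT, with mWAT array C the nearest to the BAT arrays. Elovl3, which lengthens saturated acyl chains, was 7.20, 6.49 and 6.60 in BAT, against 4.66, 3.35 and 5.35 in mWAT. In these 4 genes the 3 BAT arrays lay above every mWAT array. The log2 differences of these 3 genes were 1.91 ± 0.45, 1.49 ± 0.40 and 2.31 ± 0.62, below those of Ucp1 and Cidea. Kng1, the kinin precursor kininogen, had 12.77, 12.63 and 12.56 in BAT, against 6.93, 7.49 and 6.96 in mWAT. Nrg4, a neuregulin secreted by brown adipocytes, had a log2 difference of 2.05 ± 0.17. The call of Ppargc1a was lost without arrays A, B or C of BAT or arrays A or B of mWAT (adjusted p between 0.015 and 0.044), that of Dio2 without arrays A or C of BAT or array A of mWAT (adjusted p between 0.013 and 0.021) and that of Elovl3 without arrays A, B or C of BAT or arrays A or B of mWAT (adjusted p between 0.016 and 0.046).

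Subcutaneous fat at 28 °C lay between the depots for some of these genes. Ucp1 was 10.39, 9.52 and 10.55 in its 3 arrays and Cidea 11.63, 11.82 and 12.20. Cox7a1 was 9.03, 9.36 and 9.01, near mWAT, and Zic1 was 2.82, 2.81 and 2.91. Over the whole thermogenesis list, the mean log2 intensity was 8.70 in sWAT, against 8.39 in mWAT and 11.49 in BAT. The sWAT mean was nearer to mWAT than to BAT for 86.8% of the genes called higher in BAT and 63.6% of those called lower.

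Transcription factors of lineage and body position separated the depots in both directions. Of 23 measured factors of brown fat lineage and position, 10 were called higher in BAT and 1 lower (43.5% and 4.35%, against 17.7% and 14.8% of all genes). For 14 of the 23, both depots lay under the array median. The list includes Myf5, Pax3, Pax7 and Six4, and the part of skeletal muscle in its calls was not tested. Lhx8, a LIM homeobox factor, was 10.44, 10.68 and 10.98 in BAT, against 8.12, 8.19 and 7.0 in mWAT. Tbx15, a T-box factor of dorsal and appendicular mesoderm, was 7.41, 8.79 and 8.29 in BAT, against 4.35, 4.25 and 4.26 in mWAT. Olig1, a basic helix-loop-helix factor known from oligodendrocytes, was 10.25, 10.05 and 10.44 in BAT, against 4.45, 5.09 and 4.67 in mWAT. For these 3 factors the 3 BAT arrays lay above every mWAT array. Tbx1 was the member called lower, at 3.88, 4.11 and 4.16 in BAT, against 7.04, 6.89 and 5.63 in mWAT. Eya1, a phosphatase and transcriptional coactivator, was 5.57, 6.37 and 6.41 in BAT, against 6.56, 6.60 and 7.13 in mWAT and was not called (adjusted p = 0.18). Without both BAT arrays of high skeletal muscle level 4 of the 23 were called higher.

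Visceral factors ran the other way. Of 19 measured, 11 were called lower in BAT and 1 higher (57.9% and 5.26%, against 14.8% and 17.7% of all genes). Their median log2 difference was -1.55. Wt1, the Wilms tumour factor of mesothelium and visceral fat progenitors, was 3.88, 5.98 and 6.02 in BAT, against 9.96, 9.98 and 10.62 in mWAT. Tcf21, a factor of visceral mesoderm, was 3.99, 5.28 and 4.80 in BAT, against 10.05, 9.77 and 10.80 in mWAT, a log2 difference of -5.51 ± 0.43. Isl1, a LIM homeobox factor, was 4.73, 4.20 and 4.08 in BAT, against 7.97, 7.76 and 8.75 in mWAT. For these 3 factors the 3 BAT arrays lay below every mWAT array, and BAT array A was the lowest for Wt1 and Tcf21. Gata6 had a log2 difference of -1.75 ± 0.36, and Gata4, its close relative, 0.33 ± 0.39 (adjusted p = 0.53). Tbx18 was the member called higher in BAT, at 7.92, 7.62 and 7.73 in BAT, against 3.35, 4.99 and 4.33 in mWAT. Foxf2 was called lower by its brightest probe set (-4.09 ± 0.44), and another of its probe sets was called in the opposite direction.

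Hox genes, which mark position along the body axis, mostly did not pass the test. Of 33 measured, 1 was called higher and 6 lower, shares of 3.03% and 18.2% against 17.7% and 14.8% of all genes, so that the share called lower was near that of all genes. Hoxa4, of an anterior group, was 9.88, 9.16 and 9.39 in BAT, against 7.26, 7.52 and 8.61 in mWAT. Hoxd10, of a posterior group, was 3.28, 3.41 and 3.92 in BAT, against 8.41, 8.40 and 6.62 in mWAT, a log2 difference of -4.27 ± 0.53, with mWAT array C the lowest of the mWAT arrays. The other members called lower were Hoxb2, Hoxb3, Hoxb5, Hoxb6 and Hoxc8, with log2 differences of -1.29 ± 0.31, -0.92 ± 0.24, -1.96 ± 0.28, -2.06 ± 0.37 and -1.96 ± 0.40. Without both BAT arrays of high skeletal muscle level 2 members were called lower, and the call of Hoxb2 was lost without arrays A or C of BAT or array C of mWAT (adjusted p between 0.014 and 0.017) and that of Hoxb3 without arrays A, B or C of BAT or arrays A or C of mWAT (adjusted p between 0.013 and 0.037).

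Mitochondrial genes were higher in BAT as a broad group. Over 12 lists, 277 genes of mitochondria, peroxisomes and creatine or calcium cycling were measured, of which 230 were called higher and 8 lower, against 17.7% and 14.8% of all genes. Their median log2 difference was 0.93, and BAT arrays lay above mWAT arrays without overlap for 246 of the 277 (31.6% of all genes). The differences were smaller than those of the leading thermogenic genes and the arrays agreed closely, with a median SD of 0.065 in BAT and 0.17 in mWAT over these genes.

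Within the respiratory chain, 66 of 78 measured subunits and electron carriers were called higher and 1 lower, against 17.7% and 14.8% of all genes. All 33 measured subunits of complex I were called higher, with a median log2 difference of 0.73. Ndufs1, its largest subunit, was 13.33, 13.19 and 13.28 in BAT, against 11.76, 11.46 and 12.08 in mWAT, a log2 difference of 1.50 ± 0.14. Ndufv1, which binds NADH, was 14.08, 14.02 and 14.09 in BAT, against 12.75, 12.66 and 12.98 in mWAT. Of complexes II and III and cytochrome c, 13 of 14 genes were called higher, with Uqcrb as the exception (0.36 ± 0.12, adjusted p = 0.029). Uqcrc1, a core protein of complex III, was 13.59, 13.52 and 13.65 in BAT, against 11.67, 11.83 and 12.12 in mWAT. Cyc1, cytochrome c1, was 13.28, 13.21 and 13.32 in BAT, against 11.58, 11.26 and 11.88 in mWAT. In each of these 4 genes the 3 BAT arrays lay above every mWAT array, and array B was the lowest BAT array. Cycs, the mobile cytochrome c, had a log2 difference of 1.33 ± 0.15.

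Cytochrome c oxidase and ATP synthase were called in part. Among all genes, 17.7% were called higher and 14.8% lower. Of 16 oxidase subunits 11 were called higher, with a median log2 difference of 0.64, and of 15 ATP synthase subunits 9 were called higher and 1 lower, with a median of 0.46. Cox7a1, an isoform of heart, muscle and brown fat, was 13.34, 13.34 and 13.30 in BAT, against 8.42, 8.20 and 9.07 in mWAT, a log2 difference of 4.76 ± 0.25 (27.1-fold). Its broadly expressed counterpart Cox7a2 had a log2 difference of 0.28 ± 0.10 (adjusted p = 0.032). Cox8b had 2.98 ± 0.18 and its counterpart Cox8a 0.63 ± 0.11. Cox6a2, the muscle type isoform, was 7.70, 11.76 and 11.06 in BAT, against 7.38, 7.48 and 7.04 in mWAT, with BAT array A near the mWAT arrays, and was not called (adjusted p = 0.019). Atp5b, the catalytic β subunit, was 13.97, 13.98 and 13.97 in BAT, against 13.47, 13.46 and 13.59 in mWAT. Atp5g1, one of the genes of the proton-conducting c ring, was the subunit called lower, at 10.56, 11.64 and 11.39 in BAT, against 12.65, 12.34 and 12.75 in mWAT, a log2 difference of -1.38 ± 0.25. The other genes of the c ring, Atp5g2 and Atp5g3, had 0.30 ± 0.12 and -0.40 ± 0.11 and were not called. Without both mWAT arrays of high lymphocyte level, 3 oxidase subunits, no ATP synthase subunit and 18 of complex I were called higher, and without both BAT arrays of high muscle level 6, 4 and 26.

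**Figure D3:**
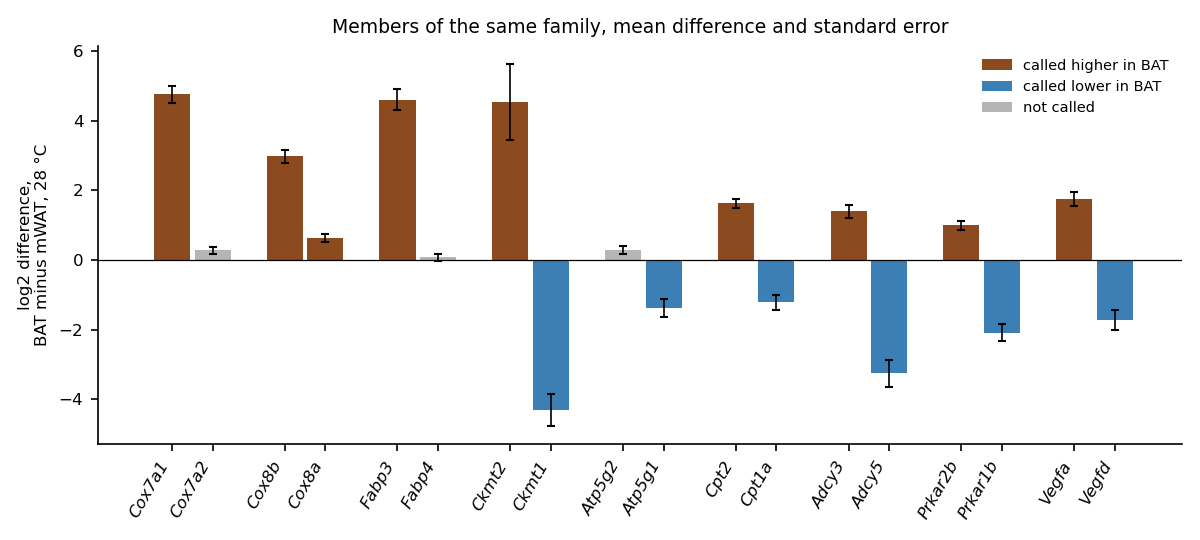
Log2 difference, BAT minus mWAT at 28 °C (vertical axis), of 9 pairs of genes from the same family, with bars for the difference and lines for the standard error of the fit. Within each pair the gene on the left has the higher difference, and in 6 pairs the gene on the right was called lower in BAT.

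The pathways that feed the chain were higher as well. In the citrate cycle and pyruvate dehydrogenase list 22 of 25 genes were called higher (88%, against 17.7% of all genes), with a median log2 difference of 1.25. Ogdh, of the oxoglutarate dehydrogenase complex, was 13.48, 13.30 and 13.41 in BAT, against 11.30, 11.21 and 11.60 in mWAT, a log2 difference of 2.03 ± 0.13. Pdk2, a kinase that restrains pyruvate dehydrogenase, was 12.34, 12.23 and 12.25 in BAT, against 10.03, 9.49 and 10.42 in mWAT. Cs, citrate synthase, differed by 0.46 ± 0.10 on the log2 scale, less than these. Of 23 genes of mitochondrial fatty acid oxidation 21 were called higher (91.3%), with a median of 1.43. Acadvl, the very long chain acyl-CoA dehydrogenase, was 14.02, 13.95 and 14.03 in BAT, against 12.01, 11.92 and 12.52 in mWAT. Acaa2, the thiolase of the last step, was 14.22, 14.17 and 14.19 in BAT, against 12.04, 11.99 and 12.52 in mWAT. Both enzymes lay near the top of the scale in BAT, and the 3 BAT arrays lay above every mWAT array. Acad10 had the largest rise of the list, at 10.81, 10.68 and 10.93 in BAT, against 7.81, 8.17 and 8.33 in mWAT. Cpt1a, the liver type of carnitine palmitoyltransferase 1, was called lower, at 7.63, 8.47 and 8.13 in BAT, against 9.41, 9.27 and 9.22 in mWAT, a log2 difference of -1.22 ± 0.22. Cpt2, which acts on the matrix side of the same shuttle, had 1.63 ± 0.14. Cpt1b, the muscle type of carnitine palmitoyltransferase 1, had no probe set that names it alone and was not measured. The paper lists Chkb-cpt1b among the gene probes most raised in BAT over mesenteric fat at thermoneutrality. The lower level of Cpt1a therefore does not describe carnitine palmitoyltransferase 1 as a whole.

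Branched-chain amino acid breakdown, ubiquinone synthesis and mitochondrial translation followed. The share of all genes called higher, 17.7%, is the background for each list here. Of 21 genes of branched-chain amino acid breakdown 19 were called higher, among them Bckdha of the committed dehydrogenase step, at 11.75, 11.44 and 11.65 in BAT, against 9.53, 9.63 and 10.01 in mWAT. Auh of the leucine branch, at 12.14, 11.91 and 12.12 in BAT, against 9.81, 9.72 and 10.07 in mWAT. Bcat2, the mitochondrial transaminase of the first step, was 12.49, 12.20 and 12.17 in BAT, against 11.49, 11.54 and 12.24 in mWAT, which missed the threshold (adjusted p = 0.09). Ubiquinone synthesis had 12 genes, of which 9 were called higher, with Coq6, a ring hydroxylase, at 12.21, 11.94 and 12.21 in BAT, against 9.31, 9.43 and 10.01 in mWAT. Coq8a was not called by its brightest probe set (-0.31 ± 0.13, adjusted p = 0.081), while the mean of its probe sets gave a log2 difference of 2.10 (adjusted p = 1.1e-08). Of 74 mitochondrial ribosomal proteins 70 were called higher, with a median log2 difference of 0.94 and a largest of 1.75 ± 0.13 for Mrpl45. In peroxisomes, which shorten very long chain fatty acids, 20 of 27 genes were called higher. Amacr, the racemase for branched acyl-CoAs, was 9.29, 9.01 and 9.45 in BAT, against 6.95, 7.01 and 7.07 in mWAT. Cat, catalase, had a log2 difference of 0.36 ± 0.09, whose call was lost without each of the 6 arrays in turn (adjusted p between 0.01 and 0.028). Without both mWAT arrays of high lymphocyte level, 9 genes of branched-chain breakdown, 11 of peroxisomes and 48 mitochondrial ribosomal proteins were called higher.

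**Figure D4:**
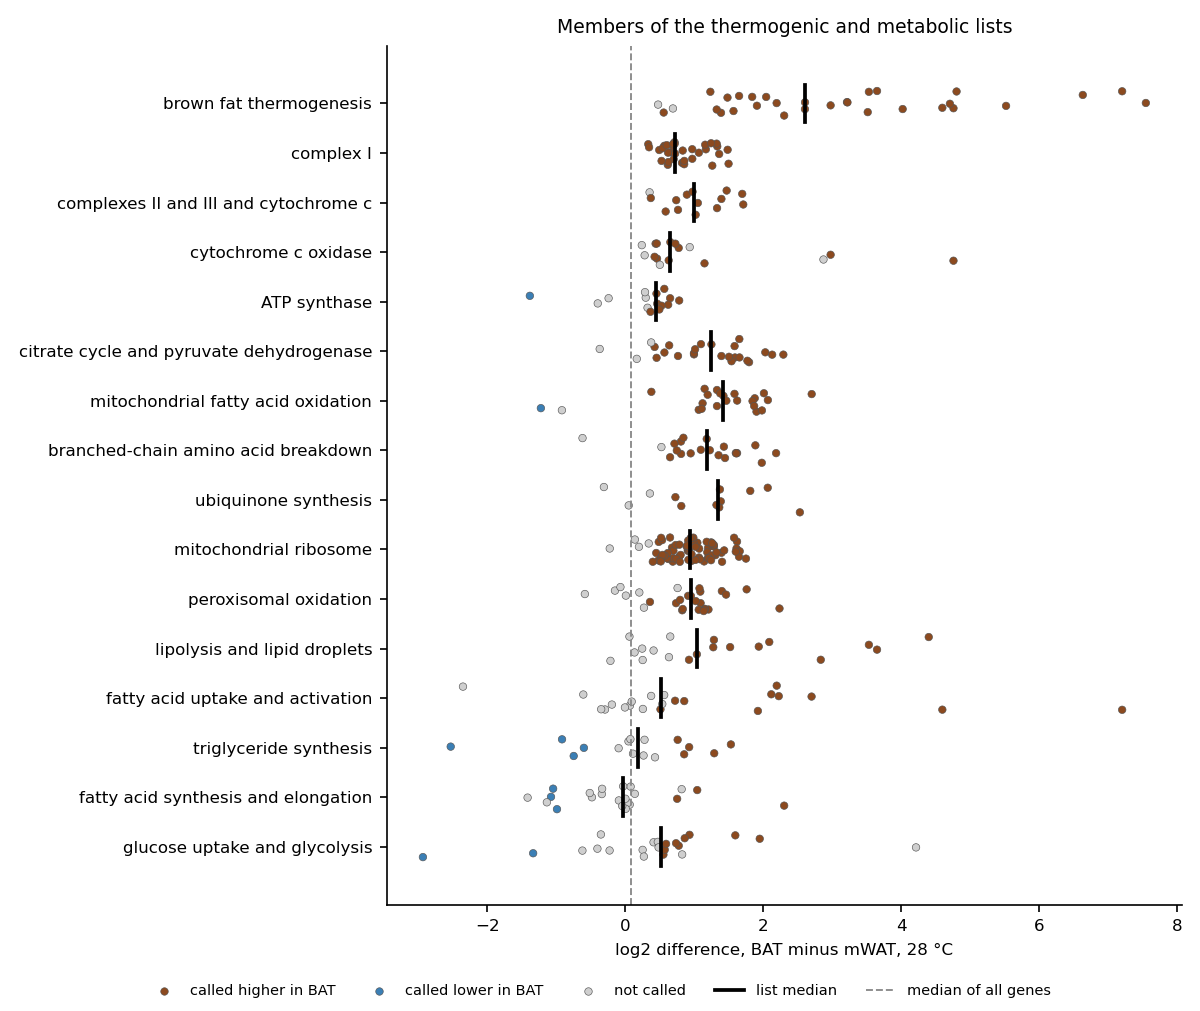
Log2 difference, BAT minus mWAT at 28 °C (horizontal axis), of each measured member of 16 thermogenic and metabolic lists (rows), coloured by call, with a black line for the list median and a dashed line for the median of all genes at 0.08. Members of complex I all lie right of the dashed line and are coloured as higher, while triglyceride and fatty acid synthesis spread to both sides.

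Carriers and futile cycles were mixed. Of 8 carriers of the uncoupling and adenine nucleotide families, Ucp1, Ucp3 and Slc25a31 were called higher and Slc25a14 and Slc25a27 lower. These shares of 37.5% and 25% stand against 17.7% and 14.8% of all genes. Ucp3, known from skeletal muscle and brown fat, was 9.56, 9.22 and 9.50 in BAT, against 7.52, 7.17 and 7.81 in mWAT. Slc25a31, an adenine nucleotide carrier known from testis, was 7.79, 8.30 and 7.46 in BAT, against 4.75, 3.79 and 4.67 in mWAT. Slc25a4, the carrier of heart and muscle, was 13.74, 13.78 and 13.88 in BAT, against 13.71, 13.53 and 13.95 in mWAT. The depots overlapped for Slc25a4, while the 3 BAT arrays lay above every mWAT array for Ucp3 and Slc25a31. Of 12 genes of creatine and calcium cycling 3 were called higher and 4 lower (25% and 33.3%, against 17.7% and 14.8% of all genes). Ckmt2, the sarcomeric mitochondrial creatine kinase, was 5.77, 10 and 9.52 in BAT, against 4.02, 3.85 and 3.79 in mWAT. Atp2a1, the calcium pump of fast muscle, was 10.04, 13.61 and 13.10 in BAT, against 6.48, 7.73 and 6.94 in mWAT. Both were higher in BAT arrays B and C, those of high skeletal muscle level, and their calls were lost without arrays B or C of BAT or arrays A, B or C of mWAT (adjusted p between 0.012 and 0.024) for Ckmt2 and arrays B or C of BAT or arrays A, B or C of mWAT (adjusted p between 0.017 and 0.04) for Atp2a1. Alpl, tissue nonspecific alkaline phosphatase, was 9.44, 9.06 and 9.25 in BAT, against 7.50, 7.88 and 8.12 in mWAT, with no such split. Ckmt1, the ubiquitous mitochondrial creatine kinase, was 3.40, 5.02 and 4.55 in BAT, against 8.52, 8.12 and 9.22 in mWAT. Ckb, the brain type cytosolic kinase, was 11.17, 11.73 and 12.17 in BAT, against 13.16, 12.76 and 13.45 in mWAT. Gatm, the first enzyme of creatine synthesis, had a log2 difference of -1.13 ± 0.39 (adjusted p = 0.029).

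Genes of lipid breakdown and uptake that were called were all higher in BAT, and the shares of fatty acid synthesis genes called were no larger than those of all genes. Of 19 genes of lipolysis and lipid droplets 11 were called higher and none lower (57.9%, against 17.7% of all genes called higher). Pnpla2, adipose triglyceride lipase, was 13.34, 13.27 and 13.37 in BAT, against 11.95, 11.89 and 12.28 in mWAT. Lipe, hormone-sensitive lipase, was 12.83, 12.90 and 12.86 in BAT, against 11.19, 11.41 and 11.41 in mWAT. For both lipases the 3 BAT arrays lay above every mWAT array. Plin5, a perilipin that ties droplets to mitochondria, was 12.44, 12.55 and 12.56 in BAT, against 8.84, 9.0 and 8.75 in mWAT, a log2 difference of 3.65 ± 0.20. Cideb, known from liver droplets, was 9.88, 9.38 and 10.49 in BAT, against 4.92, 5.91 and 5.71 in mWAT. Aqp7, the glycerol channel of adipocytes, was 11.32, 11.12 and 11.03 in BAT, against 8.11, 8.51 and 8.34 in mWAT. In these 3 genes the 3 BAT arrays lay above every mWAT array. Cidec, the droplet protein of white fat, was 13.30, 13.22 and 13.17 in BAT, against 13.03, 13.02 and 13.23 in mWAT (adjusted p = 0.33).

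Of 22 genes of fatty acid uptake and activation 10 were called higher and none lower (45.5%, against 17.7% of all genes called higher). Gpihbp1, which carries lipoprotein lipase to the capillary wall, was 12, 11.82 and 12.12 in BAT, against 9.59, 9.93 and 9.84 in mWAT. Vldlr, a receptor for triglyceride-rich lipoproteins, had a log2 difference of 2.23 ± 0.17. Lpl itself was 13.87, 13.93 and 13.97 in BAT, against 13.88, 13.82 and 13.78 in mWAT (adjusted p = 0.43). Fabp3, the heart type fatty acid binding protein, was 14.18, 14.09 and 14.16 in BAT, against 9.14, 9.15 and 10.34 in mWAT, a log2 difference of 4.60 ± 0.30. Fabp4, the adipocyte type, was 14.15, 14.17 and 14.11 in BAT, against 14.01, 14.10 and 14.11 in mWAT. The values of Lpl and Fabp4 lay near the top of the scale in both depots. Of 16 genes of triglyceride synthesis 5 were called higher and 4 lower (31.2% and 25%, against 17.7% and 14.8% of all genes). Gpat4, a glycerol phosphate acyltransferase, was 11.10, 10.70 and 10.96 in BAT, against 9.29, 9.30 and 9.57 in mWAT. Mogat2, of the monoacylglycerol route, was 6.76, 7.60 and 7.18 in BAT, against 9.57, 9.36 and 10.19 in mWAT. The arrays of the depots did not overlap for either gene, with BAT above for Gpat4 and below for Mogat2. Fatty acid synthesis and elongation were represented by 22 genes, with 3 called higher (Acacb, Elovl3 and Srebf1) and 3 lower (Elovl1, Fads1 and Fads2), 13.6% each way against 17.7% and 14.8% of all genes. Fatty acid synthase, Fasn, was 13.76, 13.87 and 13.72 in BAT, against 13.73, 13.72 and 13.88 in mWAT. Acly, which makes its acetyl-CoA, was 13.96, 14.02 and 13.91 in BAT, against 14.01, 13.94 and 13.84 in mWAT, and the desaturase Scd1 was 14.15, 14.23 and 14.12 in BAT, against 14.19, 14.19 and 14.19 in mWAT. The values of Fasn, Acly and Scd1 also lay near the top of the scale in both depots, which limits what a difference can show. Acacb, the acetyl-CoA carboxylase of the mitochondrial surface, was 13.40, 13.28 and 13.40 in BAT, against 12.17, 11.96 and 12.81 in mWAT. Acaca, the cytosolic form, had 0.07 ± 0.10. Without mWAT array A or B no gene of this list was called higher, without any 1 BAT array 1 was, and without both doubted arrays of either depot none. The call of Acacb was lost without arrays A or B of mWAT (adjusted p between 0.01 and 0.012), and that of Srebf1 without arrays A, B or C of BAT or arrays A or B of mWAT (adjusted p between 0.015 and 0.037). Fads1 and Fads2 lost theirs without each of the 6 arrays in turn, with adjusted p from 0.011 to 0.035 and from 0.018 to 0.024. In triglyceride synthesis 2 were called higher without both doubted arrays of either depot.

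Of 22 genes of glucose uptake and glycolysis 9 were called higher and 2 lower (40.9% and 9.09%, against 17.7% and 14.8% of all genes). Pfkl, a phosphofructokinase subunit of liver, was 12.68, 12.47 and 12.67 in BAT, against 10.87, 10.75 and 11.41 in mWAT. Hk2, the hexokinase of insulin-responsive tissue, was 13.56, 13.59 and 13.57 in BAT, against 12.77, 12.83 and 12.78 in mWAT, whose call was lost without each of the 6 arrays in turn (adjusted p between 0.02 and 0.025). The glucose transporters differed among themselves. Slc2a1 was 10.77, 10.70 and 10.79 in BAT, against 12.14, 12.04 and 12.08 in mWAT. Slc2a3 was 7.44, 7.74 and 7.94 in BAT, against 10.89, 10.63 and 10.40 in mWAT. Both were called lower. Slc2a4, the insulin-responsive transporter GLUT4, was 13.11, 13.07 and 12.98 in BAT, against 12.63, 12.24 and 12.83 in mWAT and was not called (adjusted p = 0.048). Without both mWAT arrays of high lymphocyte level, 2 genes of the list were called higher, and without both BAT arrays of high muscle level 3.

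Adrenergic and cAMP signalling went both ways among related genes. Of 31 measured genes 14 were called higher and 7 lower (45.2% and 22.6%, against 17.7% and 14.8% of all genes). The β-adrenergic receptor gene Adrb3 had no probe set that names it alone and was not measured. Adcy3, an adenylyl cyclase, was 11.20, 11.27 and 11.33 in BAT, against 9.74, 9.62 and 10.26 in mWAT, while Adcy1, Adcy5 and Adcy7 had log2 differences of -2.93 ± 0.42, -3.26 ± 0.38 and -2.13 ± 0.23. Adcy5 was 8.41, 8.75 and 8.79 in BAT, against 11.86, 11.54 and 12.32 in mWAT. Prkar2b, a regulatory subunit of protein kinase A, was 13.39, 13.37 and 13.35 in BAT, against 12.32, 12.35 and 12.47 in mWAT. Prkar1b, another one, was 7.64, 7.77 and 8.12 in BAT, against 9.72, 9.47 and 10.59 in mWAT. Akap1, which anchors the kinase to mitochondria, was 11.79, 11.49 and 11.60 in BAT, against 9.09, 8.90 and 9.54 in mWAT. For the subunits, the depots did not overlap, with BAT above for Prkar2b and below for Prkar1b. Pde4d, a cAMP phosphodiesterase, was 11.11, 11.26 and 10.96 in BAT, against 9.37, 9.37 and 9.79 in mWAT. The members called higher numbered 8 without both BAT arrays of high muscle level, and 6 without both mWAT arrays of high lymphocyte level.

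Of 26 nuclear receptors and coregulators 15 were called higher and 1 lower (57.7% and 3.85%, against 17.7% and 14.8% of all genes). Ppara, the receptor that drives fatty acid oxidation genes, was 11.70, 11.41 and 11.57 in BAT, against 6.51, 6.20 and 7.55 in mWAT, a log2 difference of 4.81 ± 0.27. Pparg, the master regulator of fat cells, was 12.79, 12.63 and 12.81 in BAT, against 11.06, 11.35 and 11.28 in mWAT. For both receptors the 3 BAT arrays lay above every mWAT array. Esrra and Esrrg, receptors of mitochondrial gene programmes, had log2 differences of 1.84 ± 0.19 and 3.22 ± 0.20, and Esrrg was 11.22, 11.38 and 11.53 in BAT, against 8.04, 7.98 and 8.44 in mWAT. Ppargc1b, the relative of Ppargc1a, was 11.72, 11.28 and 11.64 in BAT, against 8.81, 8.39 and 9.31 in mWAT, a log2 difference of 2.71 ± 0.23. Nr4a1, an immediate early receptor, was the member called lower, at 7.33, 7.04 and 6.80 in BAT, against 9.13, 9.13 and 9.37 in mWAT. Without both BAT arrays of high muscle level, or both mWAT arrays of high lymphocyte level, 7 members were called higher.

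Adipokines and genes typical of white fat did not divide simply. Of 22 adipokines 6 were called higher and 5 lower (27.3% and 22.7%, against 17.7% and 14.8% of all genes). Adipoq, adiponectin, was 13.71, 13.72 and 13.71 in BAT, against 13.64, 13.64 and 13.61 in mWAT, near the top of the scale in both depots. Lep, leptin, was 12.25, 12.72 and 12.36 in BAT, against 11.95, 12.72 and 11.39 in mWAT, with overlapping arrays. Retn, resistin, was 11.72, 12.75 and 12.62 in BAT, against 13.43, 13.39 and 13.68 in mWAT, whose call was lost without array A of BAT or array C of mWAT (adjusted p between 0.012 and 0.015). Nampt, an enzyme of NAD synthesis that is also secreted, was 12.26, 12.17 and 12.12 in BAT, against 10.15, 10.08 and 10.31 in mWAT. Serpina12, vaspin, was 8.33, 7.55 and 8.16 in BAT, against 5.91, 5.91 and 6.23 in mWAT. For Nampt and Serpina12 the 3 BAT arrays lay above every mWAT array. Slit2, a secreted guidance factor, was 5.62, 6.82 and 7.61 in BAT, against 11.69, 11.25 and 12.33 in mWAT, a log2 difference of -5.07 ± 0.50. Of 16 white fat genes 6 were called lower and 2 higher (37.5% and 12.5%, against 14.8% and 17.7% of all genes), with a median of -0.66. Sncg, γ-synuclein of white adipocytes and neurons, was 9.91, 10.69 and 10.12 in BAT, against 11.51, 11.96 and 11.93 in mWAT. Ptgds, a prostaglandin D synthase, was one of those called higher, at 10.92, 10.45 and 10.80 in BAT, against 9.13, 9.29 and 9.93 in mWAT. Without both mWAT arrays of high lymphocyte level 3 white fat genes were called lower.

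Mesothelial, neuronal and gut smooth muscle genes were lower in BAT. Of 20 mesothelial genes 16 were called lower and none higher (80%, against 14.8% of all genes), with a median log2 difference of -3.94. Upk3b was 4.90, 6.46 and 6.54 in BAT, against 12.16, 12.08 and 12.64 in mWAT. Msln, mesothelin, was 5.33, 4.71 and 5.03 in BAT, against 10.26, 10.09 and 11.10 in mWAT. Muc16, a mesothelial mucin, was 3.17, 3.32 and 4.24 in BAT, against 8.56, 8.36 and 9.28 in mWAT. For these 3 genes the 3 BAT arrays lay below every mWAT array. Krt19, a simple epithelial keratin, was 6.25, 8.67 and 8.76 in BAT, against 12.59, 12.51 and 12.95 in mWAT. The sWAT arrays at 28 °C had 13.74, 13.18 and 13.49 for Krt19, above mWAT, and 4.96, 4.84 and 4.88 for Upk3b, near BAT. Gpm6a, a membrane glycoprotein of neurons and mesothelium, was 6.06, 7.13 and 7.25 in BAT, against 12.13, 12.05 and 12.45 in mWAT, a log2 difference of -5.40 ± 0.29.

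Of 32 neuronal genes 27 were called lower and none higher (84.4%, against 14.8% of all genes), with a median of -3.85. Elavl4, an RNA binding protein of neurons, was 3.88, 4.27 and 5.08 in BAT, against 8.83, 8.78 and 9.69 in mWAT. Tubb3, the neuronal β-tubulin, was 4.90, 5.89 and 5.57 in BAT, against 9.20, 8.56 and 10.14 in mWAT. Vip, the vasoactive intestinal peptide of enteric neurons, was 3.28, 5.54 and 4.16 in BAT, against 10.27, 10.27 and 11.03 in mWAT. For these 3 genes the 3 BAT arrays lay below every mWAT array. Of the genes of noradrenaline synthesis, Th, tyrosine hydroxylase, was 4.34, 4.57 and 4.55 in BAT, against 4.18, 4.45 and 4.87 in mWAT. Dbh, dopamine β-hydroxylase, was 5.86, 6.01 and 5.97 in BAT, against 5.74, 5.55 and 5.96 in mWAT. Neither was called by its brightest probe set, nor were Chat, Syp and Phox2a, but the mean of the probe sets of Dbh gave a log2 difference of -1.05 (adjusted p = 0.00032). Of 15 genes of gut smooth muscle and pacemaker cells 12 were called lower (80%, against 14.8% of all genes). Actg2, the enteric smooth muscle actin, was 6.96, 9.53 and 9.23 in BAT, against 14.04, 13.70 and 14.06 in mWAT. Cnn1, calponin, was 5.99, 7.82 and 7.74 in BAT, against 12.77, 12.13 and 13.13 in mWAT. Myh11, smooth muscle myosin, was 9.35, 10.04 and 10.36 in BAT, against 13.82, 13.56 and 13.98 in mWAT. In these 3 genes the 3 BAT arrays lay below every mWAT array, and BAT array A was the lowest. Ano1, the chloride channel of pacemaker cells, was 12.36, 12.45 and 12.28 in BAT, against 12.64, 12.48 and 12.86 in mWAT (adjusted p = 0.23). In gut epithelium, none of 16 genes was called lower, and the enterocyte genes Fabp2 and Cdh17 were 3.64, 3.08 and 3.25 in BAT, against 5.91, 7.71 and 3.42 in mWAT, and 2.76, 2.84 and 2.95 in BAT, against 4.42, 5.26 and 2.95 in mWAT. The counts of neuronal and smooth muscle genes called lower were 27 and 12 also without each array in turn, and without both doubted arrays of either depot (BAT B and C, or mWAT A and B).

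Lymphocyte genes were high in mWAT arrays A and B. Of 16 T cell genes 3 were called lower and none higher, and of 20 B cell genes 10 were called lower. The T cell share of 18.8% was near the 14.8% of all genes called lower, and the B cell share was 50.0%. Cd3e, of the T cell receptor complex, was 4.73, 4.02 and 5.32 in BAT, against 9.24, 9.15 and 5.79 in mWAT. Cd3d was 6.14, 5.98 and 6.56 in BAT, against 11.82, 11.98 and 7.15 in mWAT and was not called (adjusted p = 0.016). Ms4a1, CD20 of B cells, was 4.98, 5.28 and 6.16 in BAT, against 11.74, 12.05 and 8.15 in mWAT. Jchain, the joining chain of secreted IgM and IgA, was 7.25, 8.0 and 9.21 in BAT, against 12.97, 13.32 and 11.76 in mWAT. In mWAT, arrays A and B were high and array C lay near BAT for the T cell genes. The median log2 differences were -3.56 and -4.13, and that of Cd3e was -3.37 ± 0.93. Without mWAT array C, 16 T cell and 18 B cell genes were called lower. Without any other array no T cell gene was, Cd3e included (adjusted p between 0.015 and 0.049), and 4 B cell genes were without array A or B of either depot. Without both doubted arrays of either depot, no T cell gene and 1 B cell gene was called. Mki67, of dividing cells, was 5.72, 6.37 and 7.21 in BAT, against 10.33, 10.84 and 7.73 in mWAT, and 4 of 27 cell cycle genes were called lower, 14.8% as among all genes. That count was 16 without mWAT array C, 0 or 1 without any other array (Mki67 at an adjusted p between 0.011 and 0.044), and 0 without both doubted arrays of either depot.

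Macrophage, class II and complement genes were lower in BAT. Of 26 macrophage genes 17 were called lower and none higher (65.4%, against 14.8% of all genes called lower), with a median of -1.28. Csf1r, the receptor for macrophage colony-stimulating factor, was 10.81, 11.05 and 11.35 in BAT, against 12.74, 12.77 and 12.14 in mWAT. Adgre1, F4/80, was 8.35, 8.39 and 8.81 in BAT, against 10.22, 9.96 and 9.65 in mWAT. Timd4, of resident macrophages, was 6.52, 6.10 and 6.82 in BAT, against 9.57, 9.83 and 7.82 in mWAT. For these 3 genes the 3 BAT arrays lay below every mWAT array, and mWAT array C was the nearest to BAT. In antigen presentation by MHC class II, 9 of 15 genes were called lower (60%, against 14.8% of all genes). Cd74, the invariant chain, was 12.41, 12.36 and 12.44 in BAT, against 14.13, 14.15 and 13.56 in mWAT. H2-Ab1 was 10.72, 10.85 and 11.09 in BAT, against 13.17, 13.27 and 11.99 in mWAT, with mWAT array C below arrays A and B in both. Without mWAT array A or B 3 class II genes were called lower, without any 1 BAT array 4 or 5, and without both doubted arrays of either depot 1. Macrophage genes called lower numbered 6 without both doubted mWAT arrays. Of 12 complement genes 9 were called lower, and 6 without both doubted mWAT arrays. Cfb, factor B of the alternative pathway, was 7.77, 8.27 and 8.47 in BAT, against 11, 11.10 and 10.63 in mWAT. C2, of the classical pathway, was 8.13, 8.64 and 9.04 in BAT, against 11.24, 11.33 and 11.60 in mWAT.

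Of 38 interleukins, chemokines and receptors 18 were called lower and 1 higher (47.4% and 2.63%, against 14.8% and 17.7% of all genes). Il33, an alarmin of stromal cells, was 8.38, 8.94 and 9.65 in BAT, against 10.99, 11.28 and 10.73 in mWAT. Il7, the survival factor of lymphocytes, was 5.27, 5.62 and 5.71 in BAT, against 8.35, 8.50 and 7.64 in mWAT. Cxcl13, which attracts B cells, was 8.36, 8.05 and 9.12 in BAT, against 12.44, 12.69 and 11.14 in mWAT. In these 3 genes the 3 BAT arrays lay below every mWAT array, and mWAT array C was the lowest of its depot. Il6 was 3.17, 3.08 and 3.25 in BAT, against 4.14, 4.78 and 5.16 in mWAT, at the bottom of the scale, and Il1b was 7.10, 6.80 and 6.26 in BAT, against 7.28, 7.85 and 7.25 in mWAT (adjusted p = 0.18). Cxcl14 was the member called higher, at 12.23, 12.14 and 11.44 in BAT, against 9.69, 9.22 and 10.63 in mWAT. Without BAT array A 7 members were called lower, without mWAT array A 11 and without array B 10. Without both doubted BAT arrays 8 were, and without both doubted mWAT arrays 4. Of 18 mast cell and granulocyte genes Hdc was called higher and Fcer1a lower (5.56% each, against 17.7% and 14.8% of all genes). The mast cell protease Cma1 was 8.82, 9.19 and 9.58 in BAT, against 9.23, 9.14 and 9.54 in mWAT.

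Many blood vessel genes were higher in BAT and most lymphatic genes lower. Of 26 genes of the endothelium list 13 were called higher and 3 lower (50% and 11.5%, against 17.7% and 14.8% of all genes). The list holds growth factors such as Vegfd besides markers of endothelial cells. Kdr, the VEGF receptor 2, was 12.06, 11.87 and 11.93 in BAT, against 10.56, 10.59 and 10.58 in mWAT. Cdh5, VE-cadherin, was 9.65, 9.09 and 9.65 in BAT, against 7.87, 7.81 and 8.19 in mWAT. Aplnr, the apelin receptor, was 11.88, 12 and 11.97 in BAT, against 10.19, 10.42 and 10.21 in mWAT. For these 3 receptors and adhesion genes the 3 BAT arrays lay above every mWAT array. Pecam1 was 9.68, 9.53 and 9.71 in BAT, against 9.53, 9.88 and 9.54 in mWAT and was not called. The growth factors Vegfa and Vegfb had log2 differences of 1.76 ± 0.20 and 1.64 ± 0.23, and Vegfa was 11.78, 11.69 and 11.78 in BAT, against 10.01, 9.93 and 10.04 in mWAT. Angpt1, a ligand of the receptor encoded by Tek, was 10.77, 10.46 and 10.18 in BAT, against 6.99, 6.97 and 8.03 in mWAT, a log2 difference of 3.14 ± 0.27. Vwf, Plvap and Vegfd were called lower, with Vwf, von Willebrand factor of larger vessels, at 9.05, 9.17 and 9.04 in BAT, against 10.57, 10.63 and 10.94 in mWAT. Without both mWAT arrays of high lymphocyte level 8 endothelial genes were called higher. Of 8 lymphatic endothelial genes 6 were called lower (75%, against 14.8% of all genes). Prox1, the factor that sets lymphatic identity, was 4.44, 5.58 and 4.80 in BAT, against 9.68, 9.59 and 8.81 in mWAT. Lyve1, a hyaluronan receptor, was 8.02, 7.91 and 8.63 in BAT, against 10.78, 10.93 and 10.32 in mWAT, and Mmrn1 had a log2 difference of -5.35 ± 0.32.

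Matrix genes were lower in BAT. Of 29 genes of fibroblasts and extracellular matrix 16 were called lower and none higher (55.2%, against 14.8% of all genes called lower). Their median log2 difference was -1.01. Dcn, decorin, was 12.02, 12.07 and 12.27 in BAT, against 13.65, 13.65 and 13.81 in mWAT. Fbln1, fibulin 1, was 7.60, 8.14 and 8.0 in BAT, against 10.92, 10.74 and 11.55 in mWAT. Thbs1, thrombospondin 1, was 5.57, 6.25 and 6.73 in BAT, against 10.09, 10.03 and 10.24 in mWAT, a log2 difference of -3.93 ± 0.45. Dpp4, a surface peptidase of stromal progenitors, was 9.39, 9.82 and 10.22 in BAT, against 12.36, 12.51 and 12.19 in mWAT. For these 4 genes the 3 BAT arrays lay below every mWAT array, and BAT array A was the lowest. The collagens differed less, with Col1a1 at 11.59, 12.14 and 12.04 in BAT, against 12.67, 12.67 and 12.75 in mWAT, and its call was lost without arrays A or C of BAT or arrays A, B or C of mWAT (adjusted p between 0.013 and 0.04). The members called lower numbered 9 without both BAT arrays of high muscle level, and 8 without both mWAT arrays of high lymphocyte level.

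Skeletal muscle genes were high in BAT arrays B and C. Of 26 genes 6 were called higher and none lower (23.1%, against 17.7% of all genes called higher). The median log2 difference was 4.29, and BAT lay above without overlap for 19 of the 26 (31.6% of all genes). Myh4, the fast IIb myosin, was 9.46, 13.30 and 12.98 in BAT, against 4.31, 7.30 and 5.87 in mWAT. Acta1, skeletal actin, was 10.11, 13.54 and 13.25 in BAT, against 8.45, 8.24 and 8.90 in mWAT. Neither was called (adjusted p = 0.011 and adjusted p = 0.052). Mb, myoglobin, was 8.94, 11.95 and 11.38 in BAT, against 5.39, 5.52 and 5.91 in mWAT and was called (adjusted p = 1e-05). Without BAT array A, 20 members were called higher, and without any other array 2. Without both doubted arrays of either depot 1 was called. Exocrine pancreas genes, with Prss2 at 3.64, 4.11 and 4.32 in BAT, against 10.66, 4.20 and 4.45 in mWAT, were high in mWAT array A alone, and none of 18 was called. The glial genes Sox10 and Gfap had log2 differences of -0.35 ± 0.35 and -0.79 ± 0.38 and were not called, and S100b, which both glia and brown adipocytes express, was 11.39, 10.81 and 11.14 in BAT, against 7.40, 7.17 and 8.22 in mWAT. Of 12 glial genes 2 were called higher and 2 lower (16.7% each), and of 16 of gut epithelium 2 higher (12.5%). Of 12 islet genes 1 was called higher and 2 lower (8.33% and 16.7%), and of 14 of mammary epithelium 2 and 2 (14.3% each). Of 12 NK cell genes 1 was called lower (8.33%), and of 4 erythrocyte genes none. These shares lay near or under the 17.7% and 14.8% of all genes called higher and lower. With 1 array left out, 0 to 5 NK cell genes were called lower, 1 or 2 glial and gut epithelial genes higher, 1 or 2 islet genes lower and 0 to 2 mammary genes higher. Of the general transcripts, Tbp was 10.11, 9.92 and 10.07 in BAT, against 10, 10.23 and 9.87 in mWAT. Actb, β-actin, was 13.53, 13.60 and 13.44 in BAT, against 14, 14.05 and 14.06 in mWAT and was called lower (adjusted p = 0.0004).

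At 6 °C, in 6 other arrays, the same depots gave most of the differences again. Both comparisons took their spread from the same fit to 18 arrays. The T cell genes averaged 10.92, 10.89 and 6.07 in mWAT arrays A, B and C at 6 °C. Exocrine pancreas genes averaged 13.70 in mWAT array B and 9.71 in BAT array C, against 5.07 to 5.99 in the other arrays of these depots at 6 °C. The part of such cells in the repeated differences was not tested. At 6 °C, 3868 genes were called higher in BAT and 3435 lower (21.3% and 18.9% of all genes). Of the 3218 genes called higher at 28 °C, 2463 (76.5%) were called higher at 6 °C and 8 lower. Of the 2697 called lower at 28 °C, 2283 (84.6%) were called lower at 6 °C and 10 higher. The thermogenesis list had 29 of 31 members called higher at both temperatures, and the neuronal list 26 of its 27 calls. A test of the difference between temperatures called 103 genes (0.566%), 59 with the log2 difference higher at 6 °C (0.324%) and 44 lower (0.242%). In probe sets the count was 262 (0.582%), and it lay between 95 and 369 with 1 array left out, lowest without array C of BAT at 28 °C or at 6 °C.

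Ucp1 was among these 103. Its log2 difference between BAT and mWAT was 4.87 ± 0.29 at 6 °C, against 7.55 ± 0.29 at 28 °C, a change of -2.68 ± 0.42 (adjusted p = 0.0045), and its mWAT mean was 9.50 ± 0.70 at 6 °C and 6.48 ± 0.25 at 28 °C (SD). Its BAT mean was 14.36 ± 0.048 at 6 °C and 14.03 ± 0.038 at 28 °C, near the highest intensity on the 28 °C arrays of both depots (14.58), so that a rise in BAT may not show in full and the size of the change is uncertain. Angpt1 differed between the depots by 0.11 ± 0.27 at 6 °C, against 3.14 ± 0.27 at 28 °C. Serpina12, Alpl and Bmp8b, which encodes a bone morphogenetic protein of brown fat, had larger differences at 6 °C, of 5.76 ± 0.33, 3.32 ± 0.20 and 5.30 ± 0.29. At 28 °C that of Bmp8b was 1.24 ± 0.29, and its call there was lost without arrays A or B of BAT or arrays A or B of mWAT (adjusted p between 0.012 and 0.019). Slc27a2, Zic1 and Cpn2 had log2 differences at 6 °C of 8.23 ± 0.34, 7.27 ± 0.17 and 7.09 ± 0.36.

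**Figure D5:**
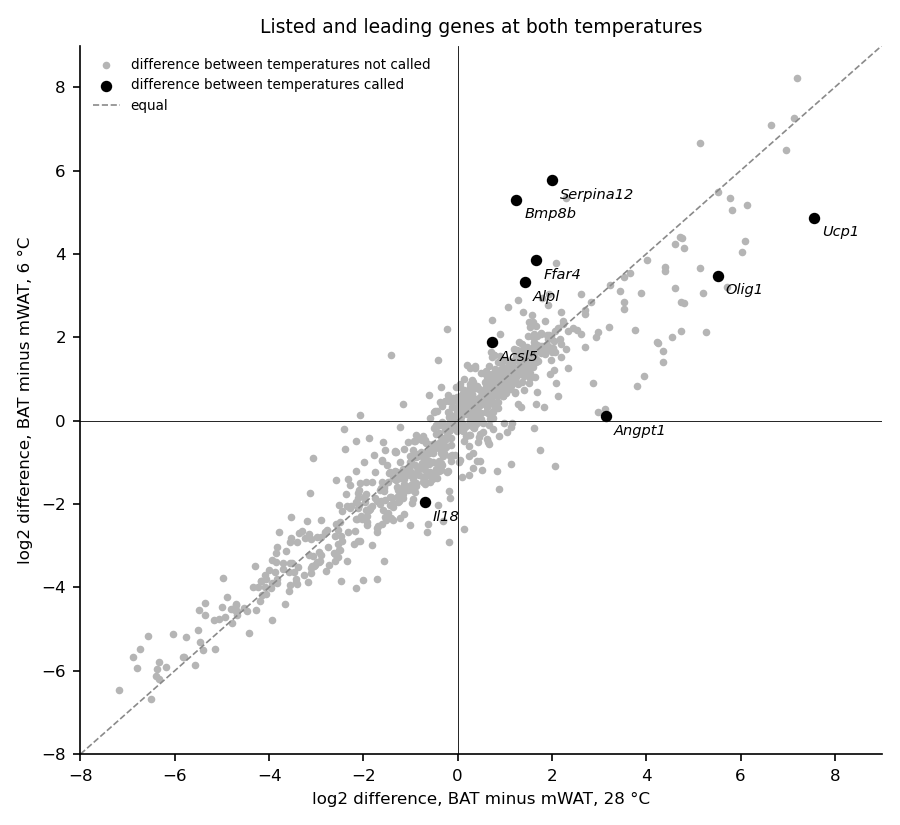
Log2 difference, BAT minus mWAT, at 28 °C (horizontal axis) and at 6 °C (vertical axis) of the listed and leading genes, 1 point per gene, with a dashed line where both are equal. Black points with names are the 9 listed genes whose difference changed with temperature at an adjusted p under 0.01, and Ucp1, Angpt1, Olig1 and Il18 lie below the line.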

How the data were processed

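Total RNA from whole fat depots was extracted with Trizol, amplified with the NuGEN Ovation V2 system, labelled with biotin and hybridised to Affymetrix mouse arrays. The authors background adjusted, summarised and normalised the probe signals with the Bioconductor package affy, by an algorithm not given in the sources used here, and deposited a linear intensity for each probe set. The array model was described in more than 1 way by the study, and probe sets were named through the platform annotation. The 64 control probe sets were left out, and the other 45037 were log2 transformed with no further normalisation. Of these, 34945 name 1 gene, 932 several and 9160 none, and genes were named from the first kind alone (18193 genes, each at its probe set of highest mean over 18 arrays). No detection calls were used, and precision rests on 3 arrays a group.

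Groups were set by title. One linear model of 6 group means was fitted to 18 arrays in limma 3.58.1 (R 4.3.3), with a two-sided moderated test, Benjamini-Hochberg adjustment over 45037 probe sets and a threshold of 0.01. The adjusted p of a gene is that of its probe set. Tables and plots were made in Python 3.11.15 with pandas 2.3.3 and matplotlib 3.10.9, and the fit was tested on simulated data. The genes named were the 10 of largest rise and the 10 of largest fall among called genes whose arrays did not overlap, the first 4 members and up to 6 called members of largest difference of each of 48 gene lists, genes that the study names, and members needed to spell out small counts or partner isoforms. The lists, the rule and the members were chosen with earlier results of these data known. The alternatives were another threshold, a fold minimum, a fit to the 6 arrays alone, quantile normalisation, median centring, a filter on dim probe sets, a variance trend with robust estimates, averaging a gene's probe sets, and leaving out each array in turn. Leaving out both BAT arrays of high skeletal muscle level, or both mWAT arrays of high lymphocyte level, was chosen after seeing the data.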

Additional observations from a re-analysis of the deposited data

Results flagged for a closer look

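For 9 of the genes listed or named, the log2 difference between BAT and mWAT at 6 °C differed from that at 28 °C by the limma test of the difference itself, in which 262 of 45037 probe sets passed. The change was taken as the difference at 6 °C minus that at 28 °C. It was positive for Bmp8b (4.06, adjusted p = 0.0003), Serpina12 (3.76, adjusted p = 0.0013), Ffar4, a receptor for long chain fatty acids (2.19, adjusted p = 0.0023), Alpl (1.90, adjusted p = 0.0031) and Acsl5, an acyl-CoA synthetase (1.17, adjusted p = 0.0098). It was negative for Angpt1 (-3.03, adjusted p = 0.0013), Ucp1 (-2.68, adjusted p = 0.0045), Olig1 (-2.03, adjusted p = 0.0066) and Il18, an interleukin of macrophages and epithelia (-1.25, adjusted p = 0.0042). Bmp8b, Ffar4 and Acsl5 were chosen after their values were seen. The BAT values of Ucp1 lay near the top of the intensity scale at both temperatures, which can limit its difference.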

How the results depend on the processing

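No paired analysis was possible because no label ties arrays to mice, and the replicate numbers only name arrays. At an adjusted p under 0.05, 10 Hox genes and 10 T cell genes were called lower, 18 skeletal muscle genes were called higher, and 1063 probe sets differed between temperatures. With a difference of at least 2-fold as well, 7576 probe sets were called, 3770 of them higher, and the genes called higher numbered 10 in complex I, 7 in complexes II and III, 3 in cytochrome c oxidase, 0 in ATP synthase, 12 in branched-chain amino acid breakdown, 32 in the mitochondrial ribosome, 13 in peroxisomes, 2 in triglyceride synthesis, 2 in glycolysis and 6 in adrenergic signalling. A fit to the 6 arrays alone called 7462 probe sets, 4300 higher and 3162 lower, with 4 genes of cytochrome c oxidase, 1 of ATP synthase, 0 of fatty acid synthesis, 4 of glycolysis and 8 nuclear receptors higher, and 0 T cell, 2 B cell, 11 macrophage, 3 class II and 11 interleukin and chemokine genes lower. Centring each array on its median called 9417 probe sets higher and 4196 lower (69.2% of calls higher, against 58.1% as deposited), moved the median of all probe sets to 0.25 from 0.12, and called 1 T cell gene lower and 11 skeletal muscle genes higher. Leaving out dim probe sets also called 11 skeletal muscle genes higher, and a variance trend with robust estimates called 0 T cell genes lower.

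Without both BAT arrays of high muscle level 6556 probe sets were called, 3902 higher and 2654 lower. The genes called higher were then 4 lineage factors, 6 of cytochrome c oxidase, 4 of ATP synthase, 2 of triglyceride synthesis, 0 of fatty acid synthesis, 3 of glycolysis, 8 of adrenergic signalling, 7 nuclear receptors and 1 of skeletal muscle. Those called lower were 2 Hox, 0 T cell, 1 B cell, 1 class II, 8 interleukin and chemokine and 9 matrix genes. Without both mWAT arrays of high lymphocyte level 6636 were called, 3207 of them higher. The genes called higher were then 18 of complex I, 3 of cytochrome c oxidase, 0 of ATP synthase, 9 of branched-chain breakdown, 11 of peroxisomes, 2 of triglyceride synthesis, 0 of fatty acid synthesis, 2 of glycolysis, 6 of adrenergic signalling, 7 nuclear receptors, 1 of skeletal muscle and 8 of endothelium. Those called lower were 3 white fat, 0 T cell, 1 B cell, 6 macrophage, 1 class II, 4 interleukin and chemokine and 8 matrix genes. Both settings leave 1 array in a group, whose spread is taken from the other groups.

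With 1 array left out, the count lay between 0 and 4 for fatty acid synthesis, 0 and 16 for T cells, 4 and 18 for B cells, 3 and 13 for class II, 7 and 20 for interleukins and chemokines, 2 and 20 for skeletal muscle, and 95 and 369 for probe sets that differed between temperatures. Of 302 named genes that were called, 240 stayed called whichever array of either depot at 28 °C was left out and 62 did not. With the mean of all probe sets of a gene, Coq8a had a log2 difference of 2.10 (adjusted p = 1.1e-08) and Dbh of -1.05 (adjusted p = 0.00032), opposite in sign to their brightest probe sets. Quantile normalisation ended the call of 10 of the 380 named genes. The causes of the changes between settings were not tested. Probe sets near the bottom or the top of the intensity scale limit what a difference can show: the lower depot lay under its array median for 841 of the genes called higher and 1110 of those called lower.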
